A study of Mus musculus with 44 samples.

Results

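Libraries of the mouse line L929 labelled Full-length (Isoform 2), a construct of the protein FRMD5, were compared with L929 libraries labelled Control. The libraries were chosen by their titles alone, 4 on each side, so that 8 of the 44 libraries of the series were compared. Every gene of the L929 table that passed a filter on low counts was described, which left 14118 of 54532 genes. L929 cells are fibroblasts of mouse connective tissue, kept in DMEM with fetal bovine serum. Polyadenylated RNA was captured on poly-T beads, copied from random hexamers and sequenced on an Illumina instrument. The series title asks how FRMD5 bears on the function of the glucocorticoid receptor.

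The full-length group is 1 of 3 construct groups in L929, all of isoform 2 of FRMD5. The other two, labelled delta-IDR combined domain and delta-coiled-coil and -LCDs, lack the disordered regions, or the coiled coil with the low-complexity domains, and are called delta-IDR and delta-CC-LCD here. The design text places the L929 construct work after 4 hours of dexamethasone (DEX), with no concentration stated. Nothing tells whether the control cells were given DEX, what vector they carried, or whether the lines were clones. The construct and DEX therefore cannot be told apart in any comparison with control below. Separate cultures are not named for the 4 libraries of a group either, so p-values here weigh a spread among libraries that may be technical only.

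As background, the glucocorticoid receptor (Nr3c1) waits in the cytoplasm in a complex of HSP90 and co-chaperones. On binding a steroid such as DEX it enters the nucleus, where it binds paired half-sites in DNA and induces some genes while restraining inflammatory ones. Fibroblasts have long served as a model of this response, which includes feedback on the receptor, on MAP kinases and on insulin signalling. FRMD5 belongs to the FERM-domain proteins, which link membrane proteins to the actin cytoskeleton at the cell cortex.

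Total counts ran from 17294752 to 17713321 in the full-length libraries and from 17665699 to 18027729 in the control libraries. Frmd5 itself had 1, 0, 6 and 2 counts in the full-length libraries, against 2, 4, 5 and 4 counts in the control libraries. The counts thus do not show which libraries carried the construct, Frmd5 did not pass the filter, and the groups are named throughout by their labels. Of 16 fibroblast and mesenchymal markers 11 were tested, with summed levels of 12891 to 13472 CPM in full-length and 14421 to 15028 CPM in control libraries, while Dcn, Lum and Twist1 were at 0 in all 8. CPM is counts per 1e+06 counts, after TMM scaling except for these sums of markers, which use the total counts. The 8 epithelial markers summed to 0.0578 to 0.508 CPM in full-length and 0.721 to 1.36 CPM in control libraries, the 9 haematopoietic and macrophage markers to 19.9 to 21.1 CPM and 28.9 to 31.5 CPM, and the 6 adipocyte markers to 798 to 910 CPM and 501 to 536 CPM. The 4 full-length libraries fell into pairs, as described with their genes further on, and no library was the same as another within sampling noise.

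The sequences of 5 promoters are shown first, because the genes they belong to moved far in this comparison or stand for a list described below, and because each holds an exact match to a motif known from the biology of its pathway. Each is a window from 250 bases before to 50 bases after a RefSeq start site (GRCm38.p6), written 5′ to 3′ along the gene's strand, with the matched motif in capitals. The motifs were the paired glucocorticoid response element (AGAACA and TGTTCT with any 3 bases between), the cAMP response element (TGACGTCA), the CArG box bound by serum response factor, and the interferon-stimulated response element (TTTC repeated after any 2 bases), searched on both strands.
Sgk1, chr10:21993640-21993939, plus strand: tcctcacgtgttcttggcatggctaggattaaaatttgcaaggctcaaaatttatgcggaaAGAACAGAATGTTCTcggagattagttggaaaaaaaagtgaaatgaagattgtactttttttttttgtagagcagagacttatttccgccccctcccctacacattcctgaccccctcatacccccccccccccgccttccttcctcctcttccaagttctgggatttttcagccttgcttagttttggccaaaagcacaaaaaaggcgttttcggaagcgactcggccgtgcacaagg
Dusp1, chr17:26508423-26508722, minus strand: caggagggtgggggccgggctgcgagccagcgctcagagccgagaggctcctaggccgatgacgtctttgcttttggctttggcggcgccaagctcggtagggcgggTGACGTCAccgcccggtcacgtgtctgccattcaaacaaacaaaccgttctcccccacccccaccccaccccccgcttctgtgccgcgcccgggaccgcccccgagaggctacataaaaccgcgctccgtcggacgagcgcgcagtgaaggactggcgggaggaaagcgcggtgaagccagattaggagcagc
Errfi1, chr4:150854820-150855119, plus strand: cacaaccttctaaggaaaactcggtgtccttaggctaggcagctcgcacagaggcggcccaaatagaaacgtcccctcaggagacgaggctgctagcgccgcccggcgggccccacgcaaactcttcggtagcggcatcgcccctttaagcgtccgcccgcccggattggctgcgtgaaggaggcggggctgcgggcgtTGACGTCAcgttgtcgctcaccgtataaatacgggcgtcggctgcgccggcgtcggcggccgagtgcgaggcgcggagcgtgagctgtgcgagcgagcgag
Srf, chr17:46556113-46556412, minus strand: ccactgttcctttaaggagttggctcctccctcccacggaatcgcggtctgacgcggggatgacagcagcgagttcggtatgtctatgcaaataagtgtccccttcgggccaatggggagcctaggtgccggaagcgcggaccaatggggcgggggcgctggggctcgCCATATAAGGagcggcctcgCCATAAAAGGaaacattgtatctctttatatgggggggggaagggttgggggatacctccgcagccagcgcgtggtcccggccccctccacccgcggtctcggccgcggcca
Ifit1, chr19:34640639-34640938, plus strand: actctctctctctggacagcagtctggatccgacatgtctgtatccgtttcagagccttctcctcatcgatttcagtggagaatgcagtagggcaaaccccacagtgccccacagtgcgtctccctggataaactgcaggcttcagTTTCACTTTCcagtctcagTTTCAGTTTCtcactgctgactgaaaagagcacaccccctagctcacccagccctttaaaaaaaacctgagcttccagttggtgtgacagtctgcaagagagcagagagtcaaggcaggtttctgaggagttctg
The Sgk1 window, 1 of 6 that the table holds for this gene, carries 1 paired glucocorticoid response element 189 bases before the start. Only 3 of 32851 windows (0.00913%) carry that pair, and among genes of the glucocorticoid list it was found in 1 of 52 windows. The Dusp1 and Errfi1 windows carry a cAMP response element 143 and 51 bases before the start, a motif found in 1.79% of all windows. It was in 2 of 52 windows of the glucocorticoid list (3.85%) and 4 of 19 of the MAP kinase and EGF receptor feedback list (21.1%). By gene, 3.6% of all tested genes with a window carried it, and 3.94% of those at least 2-fold higher. The Srf window carries CArG boxes 82 and 62 bases before the start, a motif found in 1.63% of all windows and in 4 of 14 windows of the SRF and YAP list (28.6%). The Ifit1 window carries interferon-stimulated response elements 104 and 85 bases before the start, a motif found in 3.44% of all windows and in 15 of 35 windows of the interferon list (42.9%). A match is a description of letters in a window, and binding was not measured here.

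Full-length and control libraries differed at most of the genes tested. With edgeR's quasi-likelihood test and a Benjamini-Hochberg adjusted p below 0.05, 8339 of 14118 genes (59.1%) were called, 4283 higher (30.3%) and 4056 lower (28.7%) in full-length. Most of these differences were small, since 4939 of the called genes (59.2%) moved by less than 1.5-fold, and 1658 (11.7%) passed at least 2-fold, 717 higher (5.08%) and 941 lower (6.67%). The rises reached further than the falls, with 239 genes at least 4-fold higher against 123 at least 4-fold lower, and 109 against 7 at 8-fold. The 4 full-length and 4 control values did not overlap in 7580 genes (53.7%). Scaling set the balance of the 2 directions, because TMM factors were 0.950 to 0.964 in full-length and 1.069 to 1.081 in control libraries. By total counts instead, the median of all genes moved by -0.17 on the log2 scale and the split became 2687 higher and 6186 lower. Log2 changes below are full-length over control with their standard error, n = 4 libraries a group, and each gene said to have risen or fallen passed the adjusted p of 0.05. For lists, shares are read against 30.3% higher and 28.7% lower among all genes, and genes that pass the filter only through the group in which they are high had to differ.

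**Figure D1:**
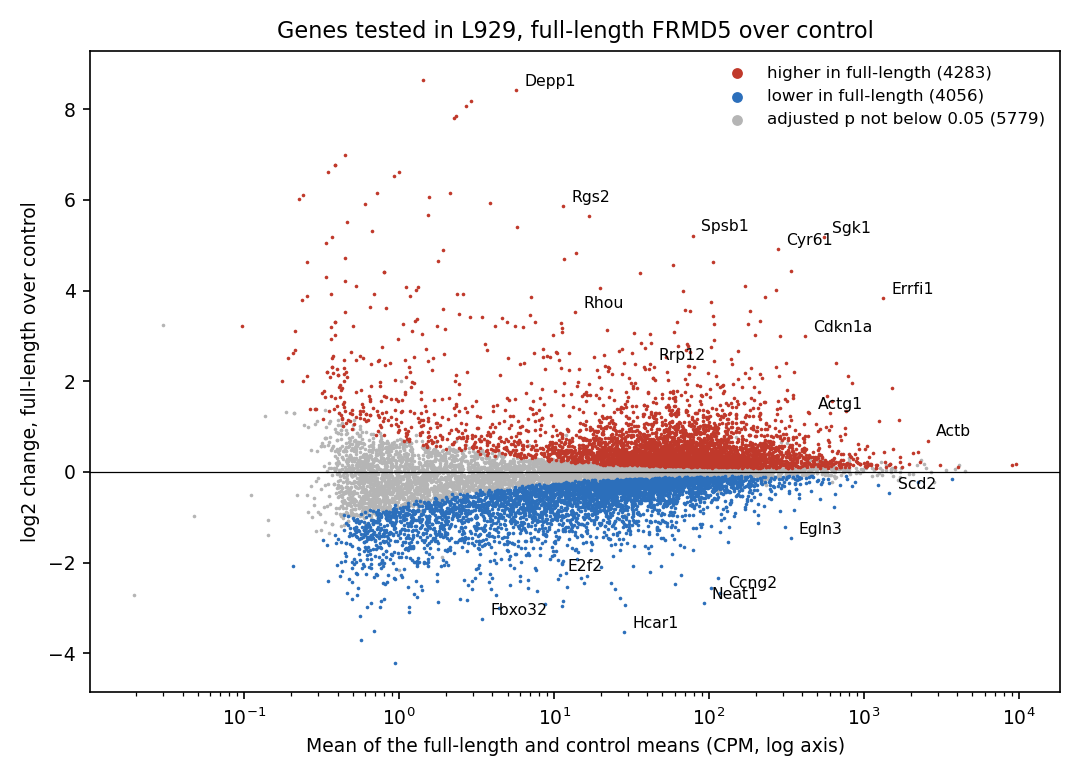
Log2 change of full-length over control (vertical axis) against the mean CPM of both groups (horizontal log axis) for the 14118 genes tested, with 4283 genes higher in full-length in red, 4056 lower in blue and the rest in grey. The spread is wider upward, where Depp1, Rgs2, Spsb1 and Sgk1 lie above 5, than downward, where Hcar1 is at -3.52.

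The largest rises joined secreted proteins, enzymes and signalling adaptors. Depp1, an autophagy regulator that is a FoxO target, had 758 counts summed over the 4 full-length libraries and 2 counts over the 4 control libraries, a ratio of 435 with a 95% counting interval of 120 to 3602. Serpina3n, an acute-phase serine protease inhibitor, had 206 counts in full-length and 3 in control libraries, a ratio of 78.9 with an interval of 26.6 to 386. Postn, a matricellular protein, had 51 counts in full-length libraries and 0 in control libraries, at least 19.5-fold higher against a floor of 3 counts over the group, but its call was lost without full-length library 2 (adjusted p = 0.0509) and without libraries 1 and 3 or libraries 2 and 4. Its fitted log2, which depends on the prior count, was 6.64 to 6.80 in these fits, against 6.77 with all libraries. Ppara, a nuclear receptor of fatty acid oxidation, had 61 counts in full-length and 1 in control libraries, a ratio of 70.1 whose interval runs from 12.1 to 2813. These intervals cover counting error only.

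Among better covered genes, Spsb1, an adaptor of an E3 ubiquitin ligase known to act on nitric oxide synthase and the TGF-beta receptor, had 157, 151, 155 and 149.8 CPM in the full-length libraries, against 5.07, 3.17, 3.95 and 4.30 CPM in the control libraries. All full-length libraries lay far above all control libraries (log2 change 5.21 ± 0.09, adjusted p = 5.5e-26). Gldc, the glycine decarboxylase of the mitochondrial glycine cleavage system, had 10.6, 10.9, 11.7 and 11.9 CPM in the full-length libraries, against 0.105, 0.416, 0.312 and 0.210 CPM in the control libraries, again without overlap (5.40 ± 0.21, adjusted p = 5.09e-20). Chst3, a chondroitin sulphotransferase, rose by 4.82 ± 0.12 and Vwce, a secreted protein with von Willebrand factor C domains, by 5.64 ± 0.16. Tead4, the DNA-binding partner of the Hippo effector YAP, had 132, 126, 127 and 129 CPM in the full-length libraries, against 8.15, 6.61, 9.04 and 8.28 CPM in the control libraries. Its groups did not overlap (4.00 ± 0.07, adjusted p = 2.75e-29). Lcn2, a siderophore-binding acute-phase protein, rose by 4.56 ± 0.23, and Tgm2, a protein-crosslinking transglutaminase, by 3.74 ± 0.06.

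The falls of greatest size took in other signalling molecules. Ccng2, a cyclin that is high in quiescent cells and a FoxO target, had 26.5, 32.5, 32.9 and 36.7 CPM in the full-length libraries, against 221, 180.4, 229 and 183 CPM in the control libraries. Every full-length library was below every control library (-2.66 ± 0.29, adjusted p = 3.68e-06). Gas1, a growth-arrest protein and Hedgehog co-receptor, had 26.3, 31.9, 27.7 and 33.7 CPM in the full-length libraries, against 170.3, 180.02, 172 and 183 CPM in the control libraries, with no overlap (-2.56 ± 0.06, adjusted p = 1.33e-24). Irs1, the docking protein of the insulin receptor, had 20.6, 18.7, 16.7 and 17.3 CPM in the full-length libraries, against 99.1, 104, 101 and 105 CPM in the control libraries. Every full-length value was under every control value (-2.48 ± 0.07, adjusted p = 2.3e-23). Aqp5, a water channel, changed by -2.78 ± 0.10 on the log2 scale, and Tmem86a, a lysoplasmalogenase, by -2.95 ± 0.13. Pik3ip1, an inhibitor of PI3-kinase, had 4.84 ± 0.592 CPM in full-length and 26.5 ± 1.40 CPM in control libraries (SD, n = 4 each) (-2.45 ± 0.12, adjusted p = 1.43e-17), and Nod2, a sensor of bacterial peptidoglycan, had 1.90 ± 0.446 CPM in full-length and 10.1 ± 0.984 CPM in control libraries (SD, n = 4 each) (-2.40 ± 0.16, adjusted p = 8.35e-14).

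In absolute level, other genes moved most. Errfi1, Mt1, Hspa8, Actb and Sgk1 gained the most CPM, followed by Sdc4, a heparan sulphate proteoglycan of focal adhesions, with 1327, 1419, 1316 and 1301 CPM in the full-length libraries, against 380.3, 321, 357 and 323 CPM in the control libraries (1.96 ± 0.05, adjusted p = 9.26e-25). Tns1, tensin, which ties integrins to actin, had 1302, 1256, 1233 and 1301 CPM in the full-length libraries, against 287, 303, 287 and 304 CPM in the control libraries (2.11 ± 0.04, adjusted p = 3.07e-27). Neither gene's groups overlapped. The largest losses of CPM were smaller, and were led by Scd2, a stearoyl-CoA desaturase, with 1222 ± 55.8 CPM in full-length and 1692 ± 53.4 CPM in control libraries (SD, n = 4 each) (-0.47 ± 0.04, adjusted p = 8.81e-12). Egln3, an oxygen-sensing prolyl hydroxylase, had 179 ± 8.75 CPM in full-length and 493 ± 28.8 CPM in control libraries (SD, n = 4 each) (-1.46 ± 0.17, adjusted p = 5.14e-06), and H1f0, a linker histone of resting cells, had 415 ± 23.1 CPM in full-length and 632 ± 21.9 CPM in control libraries (SD, n = 4 each) (-0.61 ± 0.04, adjusted p = 3.37e-14).

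**Figure D2:**
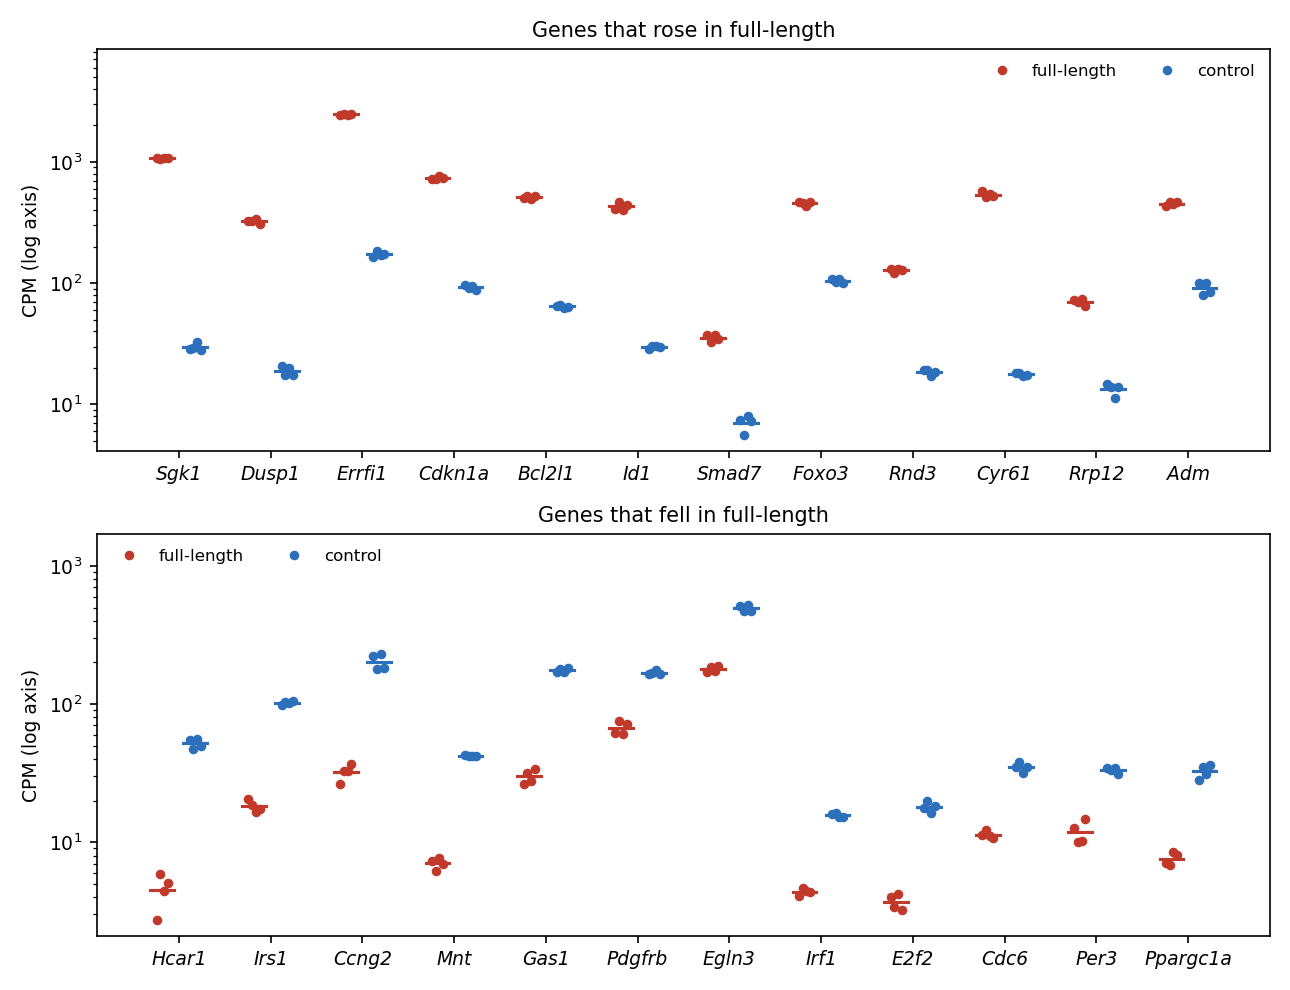
CPM per library (vertical log axis) of 12 genes that rose (top) and 12 that fell (bottom), with the 4 full-length libraries in red left of the 4 control libraries in blue and a bar at each group's mean. In none of the 24 genes do the groups overlap, and Irf1, Pdgfrb and Ppargc1a lie lower in full-length as do Irs1, Ccng2 and Mnt.

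Of 44 tested genes known to be induced by glucocorticoids, 32 rose, each at least 2-fold, 5 fell and 7 were not called, with a median log2 change of 1.88 against -0.01 over all genes. By role, 10 of 11 genes of receptor feedback and signalling rose, 11 of 14 transcription factors, 6 of 9 metabolic genes and 5 of 10 genes of secreted or surface proteins. Zbtb16, a zinc finger repressor widely used as a marker of glucocorticoid action, had 4.98, 5.65, 4.82 and 5.40 CPM in the full-length libraries, against 0.105, 0.624, 0.208 and 0.996 CPM in the control libraries. It did not overlap between groups (3.41 ± 0.31, adjusted p = 1.4e-09). Glul, glutamine synthetase, had 319, 322, 328 and 328 CPM in the full-length libraries, against 32.3, 34.7, 35.1 and 33.6 CPM in the control libraries (3.26 ± 0.05, adjusted p = 3.13e-30). All 4 full-length values exceeded all control values. The transcription factors Cebpd and Cebpb, of the acute-phase response, rose by 2.52 ± 0.10 and 1.63 ± 0.05, Klf9 and Klf15, Kruppel-like factors of steroid signalling and amino acid catabolism, by 1.83 ± 0.05 and 1.58 ± 0.05, and Ets2 by 1.07 ± 0.06. The counts of Cebpd cannot be told apart from those of the overlapping gene Spidr, since strand was not given.

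The 5 members that fell were Fbxo32, Snai2, Bcl6, Lpin1 and Klf4. Fbxo32, which encodes the muscle ubiquitin ligase atrogin-1, had 0.547, 0.301, 0.833 and 0.890 CPM in the full-length libraries, against 6.79, 5.51, 6.91 and 5.50 CPM in the control libraries. It was lower in every full-length library (-3.25 ± 0.25, adjusted p = 1.97e-12). Snai2, the repressor Slug, had 17.8 ± 0.550 CPM in full-length and 43.6 ± 2.95 CPM in control libraries (SD, n = 4 each) (-1.29 ± 0.08, adjusted p = 1.24e-14). Lpin1, a phosphatidate phosphatase, changed by -1.17 ± 0.10 and Bcl6, a transcriptional repressor, by -1.26 ± 0.13. Not called were Fkbp4, the co-chaperone of steroid receptors that resembles Fkbp5 (0.06 ± 0.05, adjusted p = 0.234), and Angptl4, an inhibitor of lipoprotein lipase (-0.18 ± 0.16, adjusted p = 0.34). The groups of both overlapped, and by total counts Fkbp4 passed as lower, at -0.11 (adjusted p = 0.0482).

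Nr3c1, the gene of the glucocorticoid receptor itself, had 129, 129, 123 and 139 CPM in the full-length libraries, against 275, 287, 294 and 282 CPM in the control libraries. It was lower in every full-length library (-1.13 ± 0.04, adjusted p = 6.64e-20). Of 25 receptor, chaperone and coregulator genes 17 rose and 3 fell (median 0.22), but by total counts 12 rose and 7 fell. Nrip1, the corepressor RIP140, had 54.04, 51.1, 52.4 and 56.3 CPM in the full-length libraries, against 21.5, 22.9, 21.3 and 22.7 CPM in the control libraries (1.27 ± 0.07, adjusted p = 7.6e-17). The full-length libraries were all higher. The histone acetyltransferases Ep300 and Crebbp rose by 0.99 ± 0.06 and 0.37 ± 0.07, and the mediator subunit Med1 by 0.43 ± 0.05, while the corepressor Ncor1 did not pass (0.03 ± 0.04, adjusted p = 0.623) but was called lower by total counts, at -0.14 (adjusted p = 0.00529). Among HSP90 partners, Ptges3 (p23) rose by 0.50 ± 0.06 and Ppid (cyclophilin 40) by 0.58 ± 0.06. Hsp90aa1 and Hsp90ab1, the 2 cytosolic HSP90 genes, moved in opposite directions, at 0.32 ± 0.04 and -0.15 ± 0.03. Nr3c2, the mineralocorticoid receptor, was not called (-0.18 ± 0.15, adjusted p = 0.329).

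Of 20 cytosolic heat-shock genes 13 rose and 3 fell (median 0.26), or 9 and 4 by total counts. Hsph1 (HSP105), Dnajb4 and Bag3 rose by 0.89 ± 0.07, 0.90 ± 0.08 and 0.35 ± 0.05. Hspa1b, the stress-inducible HSP70, whose reads are shared with a near-identical copy, changed by -1.35 ± 0.14, and Hsf2 by -0.68 ± 0.10. Genes of the endoplasmic reticulum's unfolded protein response split, with 9 of 20 higher and 5 lower (1 and 11 by total counts). Atf6, a stress sensor of that membrane, rose by 0.67 ± 0.04 and Ern1 (IRE1) fell by 0.62 ± 0.06.

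Genes of MAP kinase and EGF receptor feedback went both ways. Of 23 such genes, ligands and receptors included, 13 rose and 7 fell (median 0.34), or 11 and 9 by total counts. Dusp1, a MAP kinase phosphatase whose gene lies on chromosome 17 from 26505590 to 26508519 in mm10, had 323, 322, 340.5 and 309 CPM in the full-length libraries, against 20.9, 17.4, 19.8 and 17.5 CPM in the control libraries. The groups were far apart (4.10 ± 0.07, adjusted p = 2.88e-22). Dusp2, a nuclear phosphatase of the same family, had 60.97, 77.3, 64.4 and 72.4 CPM in the full-length libraries, against 3.08, 3.64, 3.84 and 2.46 CPM in the control libraries (4.40 ± 0.12, adjusted p = 2.5e-17). Dusp5, a nuclear phosphatase of ERK, rose by 2.27 ± 0.08. In the opposite direction, Dusp4 changed by -1.67 ± 0.06 and Dusp10, which acts on JNK and p38, by -1.41 ± 0.12. Of 10 phosphatases, 7 rose and 2 fell, and of 7 inhibitors 3 rose and 3 fell. Promoter windows of Dusp8, which was not called, and of Areg also carry a cAMP response element.

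EGF receptor ligands did not move as one. Ereg (epiregulin) had 38.6, 41.4, 32.1 and 44.8 CPM in the full-length libraries, against 3.50, 4.79, 5.14 and 4.40 CPM in the control libraries, with no overlap (3.13 ± 0.12, adjusted p = 1.39e-15). Areg (amphiregulin) rose by 1.81 ± 0.49 and Hbegf by 0.94 ± 0.09, whereas Btc (betacellulin) fell by 0.75 ± 0.20. Erbb3, a receptor of neuregulins, fell by 1.23 ± 0.28. Among inhibitors, Spry4 rose by 1.03 ± 0.09, and Lrig1, which sends the EGF receptor to degradation, fell by 1.27 ± 0.07. Spred3 fell by 1.82 ± 0.17, though it overlaps the gene Ggn. Egfr itself did not pass the filter on low counts.

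Immediate-early genes, which answer growth factors and stress within minutes, rose in 19 of 30 and fell in 4 (median 0.67). Zfp36 (tristetraprolin), which destabilises AU-rich messages, had 126, 152, 124 and 154 CPM in the full-length libraries, against 13.1, 11.5, 11.2 and 11.4 CPM in the control libraries (3.55 ± 0.10, adjusted p = 5.91e-15). Its groups did not overlap. The orphan nuclear receptors Nr4a1 and Nr4a3 rose by 2.56 ± 0.21 and 1.57 ± 0.21. Atf3, a stress-induced bZIP factor, rose by 2.56 ± 0.47, Csrnp1 by 2.74 ± 0.06, Klf2 by 1.95 ± 0.25 and Egr1 by 1.53 ± 0.13. Of AP-1 subunits 7 of 8 rose, and Fosl2 alone fell, at -0.78 ± 0.08. Ier5 also fell, at -0.78 ± 0.06.

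In TGF-beta and BMP signalling, 9 of 13 inhibitors and target genes rose and 2 fell (9 and 4 by total counts). Among 12 ligands and receptors 2 rose and 3 fell (1 and 6 by total counts). Id1, an inhibitor of bHLH factors and a direct BMP target, had 405, 469, 399.5 and 441 CPM in the full-length libraries, against 28.4, 30.5, 30.2 and 29.8 CPM in the control libraries. All full-length libraries were well above all control libraries (3.85 ± 0.05, adjusted p = 3.13e-31). Id3 had 123, 135, 125 and 133 CPM in the full-length libraries, against 11.1, 10.1, 12.2 and 10.3 CPM in the control libraries (3.56 ± 0.06, adjusted p = 4.02e-29), also without overlap, and Id2 rose by 2.33 ± 0.06. The inhibitory SMADs rose, Smad7 by 2.33 ± 0.08 and Smad6 by 1.77 ± 0.09, as did Skil (SnoN), a SMAD corepressor, by 2.18 ± 0.05, and Smurf2, a ubiquitin ligase of the receptors, by 1.11 ± 0.04. Smad3, a mediator of TGF-beta, had 22.8 ± 2.16 CPM in full-length and 58.6 ± 0.721 CPM in control libraries (SD, n = 4 each) (-1.36 ± 0.07, adjusted p = 2.46e-17), and Tgif1, a homeobox corepressor of SMADs, had 31.9 ± 3.13 CPM in full-length and 97.9 ± 8.62 CPM in control libraries (SD, n = 4 each) (-1.62 ± 0.08, adjusted p = 1.46e-14). Smad1 and Smad9, which serve BMP receptors, rose by 1.53 ± 0.06 and 1.96 ± 0.07, and the shared partner Smad4 was not called (0.09 ± 0.06, adjusted p = 0.171). Of ligands, Tgfb3 changed by -1.18 ± 0.09, though it overlaps Ttll5, and Gdf15 by -1.43 ± 0.12.

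Targets of serum response factor and of YAP went both ways, with 7 of 14 higher and 6 lower (median 0.20, and 5 and 6 by total counts). Cyr61, a matricellular YAP target, had 571, 513, 545 and 521 CPM in the full-length libraries, against 18.2, 18.3, 16.99 and 17.6 CPM in the control libraries. The lowest full-length library was many times the highest control library (4.92 ± 0.07, adjusted p = 1.04e-27). Vcl (vinculin) and Srf itself rose by 1.33 ± 0.06 and 1.10 ± 0.05, Amotl2, a feedback inhibitor of YAP, by 0.80 ± 0.05, whereas Ankrd1 changed by -0.95 ± 0.10 and Filip1l by -1.20 ± 0.07. Vcl overlaps Ap3m1, and Filip1l overlaps Cmss1.

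Small GTPase and actin cytoskeleton genes rose in 21 of 29 and fell in 4 (median 0.38, and 13 and 4 by total counts). Rhou, an atypical small GTPase, had 25.5, 27.00, 22.8 and 24.9 CPM in the full-length libraries, against 2.30, 2.24, 1.77 and 2.41 CPM in the control libraries (3.52 ± 0.11, adjusted p = 1.43e-22). Rnd3, a GTPase that opposes RhoA signalling, had 130.3, 121, 131 and 128 CPM in the full-length libraries, against 19.2, 19.2, 17.1 and 18.5 CPM in the control libraries (2.78 ± 0.05, adjusted p = 4.38e-28). In both genes every full-length library exceeded every control library. Rhoj, a relative of CDC42, rose by 2.17 ± 0.05, and Rnd1, a relative of Rnd3, fell by 0.94 ± 0.11. The structural genes Actg1, Actb and Zyx (gamma actin, beta actin and zyxin) rose by 1.30 ± 0.04, 0.69 ± 0.04 and 1.16 ± 0.05. Cdc42ep2 changed by -1.33 ± 0.11 and Arhgef2, an exchange factor of RhoA, by -0.86 ± 0.04.

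At the matrix and its receptors, Itga5, the fibronectin receptor subunit alpha-5, had 527, 547, 516 and 532 CPM in the full-length libraries, against 95.9, 104, 101 and 103 CPM in the control libraries. Its groups were fully apart (2.39 ± 0.04, adjusted p = 1.25e-28). Of 9 integrin genes 3 rose and 4 fell, with Itga4 the lowest at -1.09 ± 0.28. Without strand, counts of Itga4 cannot be told apart from those of the overlapping gene Cerkl, whose level was 147% of its CPM. Collagen and matrix genes rose in 11 of 26 and fell in 3 (median 0.17), but in 7 and 6 by total counts. The basement membrane chains Col4a1 and Col4a2, neighbours that share a promoter and overlap on opposite strands, rose by 1.13 ± 0.04 and 0.98 ± 0.04. Vcan (versican) rose by 1.62 ± 0.07, while Col1a1 and Col1a2, the chains of type I collagen, changed by -0.28 ± 0.04 and -0.22 ± 0.03. Of 17 matrix proteases and inhibitors 3 rose and 6 fell (median -0.10), or 3 and 9 by total counts. The aggrecanase Adamts5 fell by 1.37 ± 0.08.

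FERM-domain genes, the family of FRMD5, rose in 13 of 27 and fell in 5, but in 8 and 12 by total counts. Frmd4a rose by 1.10 ± 0.05, while Frmd6, an upstream regulator of Hippo signalling, changed by -0.60 ± 0.05 and Frmd8 by -0.57 ± 0.06. Rdx (radixin) and Ezr (ezrin), which tether actin to the membrane, rose by 0.80 ± 0.04 and 0.48 ± 0.04. Mylip, a FERM-domain ubiquitin ligase that degrades the LDL receptor, had 16.7, 13.8, 14.99 and 14.4 CPM in the full-length libraries, against 63.4, 65.5, 71.8 and 74.2 CPM in the control libraries. It was lower in all full-length libraries (-2.20 ± 0.07, adjusted p = 3.44e-22).

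Genes of ribosome biogenesis rose nearly throughout. Of 23 genes of ribosome biogenesis and the MYC network 21 rose and 2 fell, with a median of 0.72, and by total counts 20 rose and 2 fell. Rrp12, a factor of pre-ribosome export, had 72.8, 69.9, 73.5 and 64.2 CPM in the full-length libraries, against 14.7, 13.8, 11.3 and 13.8 CPM in the control libraries. The full-length libraries were about alike and all higher (2.39 ± 0.07, adjusted p = 3.12e-23). Polr1b, a catalytic subunit of RNA polymerase I, had 90.8, 86.2, 93.4 and 88.9 CPM in the full-length libraries, against 29.6, 29.1, 30.5 and 30.9 CPM in the control libraries (1.58 ± 0.05, adjusted p = 4.08e-22). Nolc1, a nucleolar chaperone of snoRNPs, rose by 1.38 ± 0.04, the rRNA methyltransferase Nop2 by 1.26 ± 0.05, the snoRNP proteins Nop56, Nop58 and Fbl by 1.10 ± 0.04, 0.95 ± 0.05 and 0.57 ± 0.07, and nucleolin (Ncl) by 0.50 ± 0.04. Nop56 overlaps Idh3b.

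Within the MYC network, Myc rose by 0.66 ± 0.07 and its partner Max by 0.58 ± 0.05. The antagonists that compete for Max were mixed, since Mxd4 rose by 1.11 ± 0.04 while Mxi1 changed by -1.39 ± 0.06 and Mxd1 by -0.85 ± 0.15. Mxi1 and Mxd1 are the 2 falls of the list. Outside the list, Mxd3, picked after its value was seen, changed by -1.05 ± 0.08. Mnt, also outside it and a broadly expressed antagonist of this kind, had 7.29, 6.13, 7.74 and 7.00 CPM in the full-length libraries, against 42.5, 42.3, 41.9 and 42.2 CPM in the control libraries. No library of one group reached the other (-2.58 ± 0.09, adjusted p = 2.74e-21). Odc1, a polyamine enzyme and MYC target, rose by 0.72 ± 0.04. E-boxes of the sequence CACGTG lay in 6 of 29 windows of this list (20.7%), against 7.15% of all windows. By gene the share was 26.3%, against 11.5% of all tested genes with a window. The share of windows was higher still in some other lists, whether or not they rose together. It was 21.2% for glucocorticoid-induced genes, of which 32 of 44 rose. For lists that did not rise together, it was 30.0% for clock, 26.9% for autophagy and lysosome, 26.1% for p53 and 23.5% for cholesterol genes. The part of E-boxes in these changes was not tested. By contrast, ribosomal protein genes rose in 16 of 30 and fell in 0 by a median of 0.15, but by total counts 0 rose and 2 fell, so their direction rests on the scaling. The same was seen for nuclear respiratory chain genes, with 11 of 26 higher and 1 lower, or 2 and 10 by total counts, and 4 of 13 mitochondrial genome transcripts rose (2 by total counts).

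The cell-cycle genes of S phase went the other way from ribosome biogenesis. Of 28 genes 20 fell and 2 rose (median -0.23), with 24 and 1 by total counts. E2f2, a transcriptional activator of S-phase entry, had 4.01, 3.37, 4.22 and 3.20 CPM in the full-length libraries, against 17.6, 19.8, 16.3 and 18.2 CPM in the control libraries (-2.28 ± 0.13, adjusted p = 1.55e-15). Cdc6, which loads the MCM helicase, had 11.2, 12.3, 11.1 and 10.8 CPM in the full-length libraries, against 34.8, 38.1, 31.6 and 35.01 CPM in the control libraries (-1.62 ± 0.10, adjusted p = 1.7e-13). In both genes each full-length library lay below each control library. Cdt1, the partner of Cdc6, changed by -1.09 ± 0.06 and Uhrf1, a maintenance factor of DNA methylation, by -0.62 ± 0.06, but Mcm3, Mcm5 and Mcm7 by only -0.36 ± 0.05, -0.24 ± 0.05 and -0.35 ± 0.05. Rrm2, a subunit of ribonucleotide reductase, rose by 1.06 ± 0.04. Genes of G2 and mitosis moved little, with 11 of 26 lower and 6 higher, or 16 and 2 by total counts. Cdc25b fell by 0.71 ± 0.06, and Ccnb1 (cyclin B1) rose by 0.40 ± 0.04. Mki67, a common proliferation marker, was not called (-0.11 ± 0.15, adjusted p = 0.548).

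Cell-cycle inhibitors and p53 targets rose in 11 of 20 and fell in 8. Cdkn1a (p21) had 725, 726, 762 and 733 CPM in the full-length libraries, against 95.8, 90.5, 94.95 and 88.2 CPM in the control libraries. Its groups did not overlap (3.00 ± 0.05, adjusted p = 6.02e-30). Aen, a p53-induced nuclease, rose by 2.65 ± 0.05 and Trp53inp1 by 1.76 ± 0.11, whereas Cdkn1b (p27) changed by -0.97 ± 0.05 and Gadd45a by -1.85 ± 0.10. Its relatives Gadd45b and Gadd45g rose by 2.31 ± 0.08 and 2.63 ± 0.08. Trp53, the gene of p53 itself, fell by 0.18 ± 0.05.

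Apoptosis genes fell in 11 of 22 and rose in 5 (16 and 4 by total counts). Bcl2l1 (BCL-XL), a survival protein, had 507, 520.01, 496 and 523 CPM in the full-length libraries, against 64.8, 65.4, 62.8 and 63.9 CPM in the control libraries (2.99 ± 0.04, adjusted p = 6.75e-32), with no overlap. Mcl1, another survival protein, rose by 1.01 ± 0.03, and Bcl2 fell by 0.57 ± 0.07. Of the BH3-only killers, Bbc3 (PUMA) had 2.05 ± 0.239 CPM in full-length and 15.4 ± 1.38 CPM in control libraries (SD, n = 4 each) (-2.91 ± 0.14, adjusted p = 1.56e-17), the largest fall of the list. Bcl2l11 (BIM) fell by 1.10 ± 0.08, while Bmf and Bid rose by 1.39 ± 0.14 and 1.55 ± 0.05. The initiator caspase Casp9 fell by 0.85 ± 0.08. Bid overlaps Bcl2l13.

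**Figure D3:**
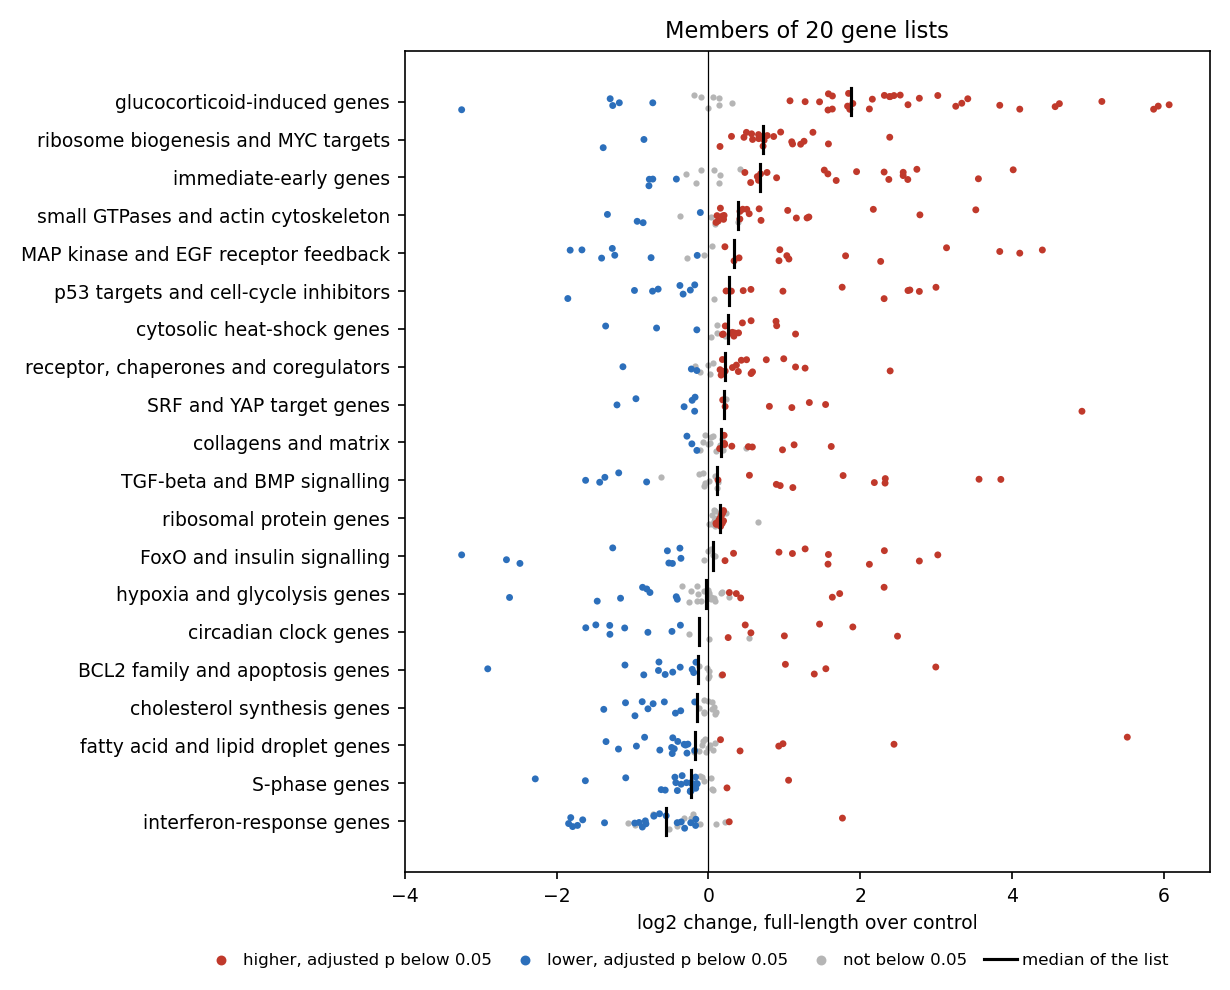
Log2 change of full-length over control (horizontal axis) for each tested member of 20 gene lists (rows), with members called higher in red, called lower in blue, not called in grey and the list's median as a black bar. Medians run from 1.88 in glucocorticoid-induced genes and 0.72 in ribosome biogenesis to -0.56 in interferon-response genes.

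FoxO and insulin signalling showed large changes in both directions, with 11 of 25 genes higher and 9 lower, or 10 and 13 by total counts. Foxo1, a transcription factor that insulin keeps out of the nucleus, had 37.6, 36.4, 37.8 and 35.5 CPM in the full-length libraries, against 6.27, 8.32, 9.25 and 5.71 CPM in the control libraries (2.32 ± 0.10, adjusted p = 3.54e-18). Foxo3 had 468, 459, 435 and 464 CPM in the full-length libraries, against 109, 103, 109 and 100.01 CPM in the control libraries (2.12 ± 0.05, adjusted p = 4.32e-26). Both were higher in every full-length library, and Foxo4 fell by 0.47 ± 0.07. Irs2 rose by 1.27 ± 0.05, opposite to the fall of Irs1 above, Pik3r1, the regulatory subunit of PI3-kinase, rose by 1.57 ± 0.05, and Insr, the insulin receptor, fell by 0.54 ± 0.06. Inhibitors of mTORC1 also split, with Ddit4 (REDD1), Sesn1 and Deptor higher by 3.02 ± 0.13, 2.78 ± 0.06 and 1.11 ± 0.05, and Tsc1 lower, at -0.52 ± 0.05.

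Among lipid genes falls outnumbered rises. Of 31 fatty acid and lipid droplet genes 15 fell and 6 rose (median -0.18), or 23 and 5 by total counts. Pdk4, which closes the pyruvate dehydrogenase gate, had 192, 174, 188 and 172 CPM in the full-length libraries, against 35.4, 31.9, 35.6 and 30.6 CPM in the control libraries (2.44 ± 0.07, adjusted p = 1.86e-18). Its groups did not overlap. Fabp4 and Plin4, which are high in adipocytes, rose by 0.98 ± 0.08 and 0.93 ± 0.06. The higher sum of adipocyte markers given above was mostly Fabp4 itself, at 722 CPM in full-length and 411 CPM in control libraries. Of its other members, Pparg had 124 and 105 CPM, Cidec 1.39 and 0.995 CPM, and Plin1 0.459 and 0.784 CPM. Adipoq and Lep did not pass the filter, and Plin4 is not in that sum. The part of other cells in these values was not tested. Srebf1, the regulator of lipogenesis, changed by -0.95 ± 0.06, though it overlaps Rai1, G0s2, an inhibitor of lipolysis, by -1.35 ± 0.20 and Lipe, hormone-sensitive lipase, by -1.18 ± 0.16. Of 20 cholesterol synthesis genes 10 fell and 0 rose, and 15 fell by total counts. The falls included Dhcr7 and Mvd, at -0.87 ± 0.09 and -0.80 ± 0.10, the regulator Insig1 at -0.97 ± 0.08, and the exporters Abca1 and Abcg1 at -1.09 ± 0.07 and -1.38 ± 0.34. Ppargc1a, a coactivator of mitochondrial genes, had 7.61 ± 0.806 CPM in full-length and 32.6 ± 3.65 CPM in control libraries (SD, n = 4 each) (-2.10 ± 0.10, adjusted p = 3.43e-17).

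Genes of hypoxia and glycolysis had no common direction against control, with 6 of 32 higher and 8 lower (median -0.03), or 5 and 12 by total counts. Adm (adrenomedullin), a vasodilator peptide, had 431, 471, 446 and 463 CPM in the full-length libraries, against 99.5, 79.2, 101 and 84.9 CPM in the control libraries (2.31 ± 0.08, adjusted p = 3.75e-13). Pfkfb3, which makes the activator of phosphofructokinase, rose by 1.73 ± 0.20, and Hif3a by 1.63 ± 0.12. Slc16a3, the lactate exporter MCT4, had 2.37, 2.59, 1.55 and 2.19 CPM in the full-length libraries, against 14.01, 12.4, 14.2 and 12.9 CPM in the control libraries (-2.62 ± 0.23, adjusted p = 3e-09). Neither Adm nor Slc16a3 overlapped between groups. Slc2a1, the glucose transporter GLUT1, fell by 0.81 ± 0.12, and Car9 was not called (0.18 ± 0.33, adjusted p = 0.675).

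Of metallothionein and NRF2 genes 11 of 20 rose and 3 fell (8 and 5 by total counts). Slc39a14, a zinc and iron importer, had 565, 598, 542 and 603 CPM in the full-length libraries, against 124, 125, 126 and 128 CPM in the control libraries (2.20 ± 0.04, adjusted p = 1.58e-28), with no overlap. The metallothioneins Mt1 and Mt2, near-identical neighbours, rose by 1.84 ± 0.11 and 2.16 ± 0.09, and Gclc, the first enzyme of glutathione synthesis, by 1.38 ± 0.07. In contrast Nfe2l2 (NRF2) changed by -0.43 ± 0.06 and Hmox1 by -0.78 ± 0.18. Of 24 genes of the ATF4 amino acid response 10 rose and 6 fell, or 9 and 12 by total counts. The transporters Slc7a11 (cystine) and Slc7a1 (cationic amino acids) rose by 2.20 ± 0.07 and 1.15 ± 0.04, whereas Trib3 changed by -1.22 ± 0.10 and Ddit3 (CHOP), which overlaps Mars, by -1.80 ± 0.07. Of 28 autophagy and lysosome genes 9 rose and 10 fell, but 2 and 19 by total counts. Neu1, a lysosomal sialidase, was the lowest at -1.03 ± 0.07.

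Most genes of the interferon response had lower transcript levels in full-length. Of 35 interferon-response genes 21 fell and 2 rose (median -0.56), and all 12 genes of sensing and signalling fell. The receptor chain Ifnar1 fell by 0.23 ± 0.05. Stat2, which carries the interferon signal to DNA with partners such as IRF9, had 12.7, 14.3, 12.6 and 14.4 CPM in the full-length libraries, against 34.9, 34.5, 34.3 and 35.5 CPM in the control libraries. The groups were apart (-1.37 ± 0.08, adjusted p = 1.86e-15). Irf9 changed by -0.36 ± 0.06, and the RNA sensors Ddx58 (RIG-I) and Tlr3 by -0.56 ± 0.08 and -0.87 ± 0.20. Other STAT genes fell, with Stat5a at -0.96 ± 0.06, Stat5b at -0.55 ± 0.05, Stat6 at -0.47 ± 0.04 and Stat3 at -0.37 ± 0.05.

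Among the effectors 9 of 23 fell and 12 were not called. Isg15, a ubiquitin-like modifier, had 1.03, 2.22, 1.19 and 2.02 CPM in the full-length libraries, against 3.50, 2.70, 3.22 and 2.78 CPM in the control libraries (-0.91 ± 0.22, adjusted p = 0.000913). Ifit1 fell by 1.65 ± 0.50, but its values overlapped between groups, with 0.243, 0.361, 0.179 and 0.652 CPM in the full-length libraries, against 0.575, 0.936, 1.87 and 1.21 CPM in the control libraries. Without full-length libraries 1 and 3 neither passed, at -0.52 (adjusted p = 0.0715) for Isg15 and -1.16 (adjusted p = 0.129) for Ifit1. Ifit3 and Oasl1 changed by -1.81 ± 0.40 and -1.79 ± 0.24, with reads that near-identical relatives may share. The 2 effectors that rose were Isg20, an RNA exonuclease, by 1.76 ± 0.11, and Irgm1, an immunity-related GTPase, by 0.27 ± 0.07. Irgm1 did not pass by total counts, at 0.10 (adjusted p = 0.209), or without full-length libraries 2 and 4, at 0.15 (adjusted p = 0.114). MHC class I genes moved little, since 2 of 14 rose and 2 fell (0 and 10 by total counts), and Tap1, the peptide transporter, fell by 0.67 ± 0.08. The sum of haematopoietic and macrophage markers, given above, was lower in full-length. So were those of fibroblast, epithelial, endothelial, glial and muscle markers, while the neuronal and adipocyte sums were higher. The macrophage sum was mostly Cd68 (10.6 CPM in full-length and 15.3 CPM in control libraries) and Cd14 (5.50 and 8.51 CPM). Ptprc, Adgre1 and Itgam had 0 to 2 counts in each library. The part of other cells in the interferon values was not tested. In bulk RNA, fewer cells of a type and less RNA per cell cannot be told apart.

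Of 15 inflammatory genes that glucocorticoids are known to repress, 6 fell and 2 rose (median -0.31). The chemokine genes Ccl2 and Cxcl1 had 22.8 ± 2.01 CPM in full-length and 41.9 ± 1.73 CPM in control libraries (SD, n = 4 each) (-0.87 ± 0.08, adjusted p = 2.38e-11) and 5.40 ± 0.600 CPM in full-length and 11.6 ± 1.32 CPM in control libraries (SD, n = 4 each) (-1.10 ± 0.13, adjusted p = 2.05e-08). Ccl2 encodes MCP-1, a monocyte attractant, and Cxcl1 a neutrophil attractant. Nos2, the inducible nitric oxide synthase, changed by -2.28 ± 0.24, Tnf by -1.81 ± 0.30 and Vcam1, an adhesion molecule, by -0.78 ± 0.10. Ptgs2 (cyclooxygenase-2) rose by 0.73 ± 0.11 and Csf1 by 0.50 ± 0.04, while Il6 was not called (0.04 ± 0.20, adjusted p = 0.873). In the NF-kB pathway 7 of 13 genes rose and 4 fell, or 3 and 5 by total counts. Its inhibitors took opposite directions, with Nfkbia and Tnfaip3 (IkB-alpha and A20) higher by 3.34 ± 0.06 and 1.86 ± 0.12, and Nfkbie (IkB-epsilon) lower, at -1.44 ± 0.16.

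Clock genes went both ways. Of 18 genes 7 rose and 8 fell (median -0.12), or 5 and 10 by total counts. Nfil3, a repressor of D-box genes, had 237, 240.4, 225 and 233 CPM in the full-length libraries, against 44.4, 38.5, 47.5 and 36.1 CPM in the control libraries. Its groups did not overlap (2.49 ± 0.07, adjusted p = 6.85e-20). Per2 and Clock rose by 1.46 ± 0.06 and 1.00 ± 0.05 and Cry1 by 0.56 ± 0.06. In the opposite direction, Per3 changed by -1.48 ± 0.10, Dbp, the activator that Nfil3 opposes, by -1.61 ± 0.13, Nr1d1 (REV-ERB alpha) by -1.30 ± 0.11 and Bhlhe41 (DEC2) by -1.30 ± 0.15. Per3, Dbp and Nr1d1 overlap the genes Camta1, Sphk2 and Thra.

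Other signalling lists had no common direction. Growth factor genes rose in 6 of 21 and fell in 8 (4 and 12 by total counts). Pdgfc was higher by 1.96 ± 0.30. Pdgfrb, the PDGF receptor beta, and Fgf7, an epithelial mitogen, were lower, at -1.33 ± 0.06 and -1.23 ± 0.06. Wnt genes rose in 4 of 12 and fell in 4 (3 and 4 by total counts), with Ccnd1 (cyclin D1) higher by 0.95 ± 0.03 and Dkk3 lower, at -1.88 ± 0.41. Notch genes rose in 4 of 10 and fell in 3 (3 and 5 by total counts). Notch4 had 7.46 ± 0.438 CPM in full-length and 0.795 ± 0.181 CPM in control libraries (SD, n = 4 each) (3.22 ± 0.16, adjusted p = 4.88e-17), and Lfng, a glycosyltransferase of Notch, had 189 ± 16.3 CPM in full-length and 25.2 ± 1.29 CPM in control libraries (SD, n = 4 each) (2.91 ± 0.05, adjusted p = 3.53e-28). Dll4, a Notch ligand, had 8 counts over the full-length libraries and 67 over the control libraries, a ratio of 0.137. G-protein and cAMP genes rose in 6 of 19 and fell in 7 (5 and 11 by total counts). Adora2b, an adenosine receptor, rose by 2.27 ± 0.11, and Pde4a, Adcy6 and Akap12 (a phosphodiesterase, an adenylyl cyclase and a kinase anchor) changed by -1.20 ± 0.08, -1.22 ± 0.05 and -1.27 ± 0.07. Of 17 potassium and calcium channel genes and pumps 4 rose and 3 fell (3 and 6 by total counts), led by the calcium pump Atp2b1 at 1.57 ± 0.05.

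Transcription factors were also counted by the families that the deposited table assigns, without a test between families. The 74 homeobox genes tested fell in 40 (54.1%) and rose in 13 (17.6%), and the 414 C2H2 zinc finger genes fell in 195 (47.1%) and rose in 77 (18.6%). Over all genes, those called lower had a median level of 16.9 CPM, against 60.1 CPM for those called higher. Control libraries held 20157 to 20321 genes with a count, and full-length libraries 19215 to 19322. The part of expression level in the shares of families, and of biotypes below, was not tested. Hox genes, which mark position along the body axis, were grouped after their values were seen. Of 27 tested, 23 fell, 11 of them at least 2-fold, 0 rose and 4 were not called, and by total counts 24 fell. In the clusters, 8 of 9 Hoxa, 8 of 9 Hoxb, 6 of 6 Hoxc and 1 of 3 Hoxd genes fell. Hoxc5 was the lowest, with 0.608, 0.962, 1.67 and 1.84 CPM in the full-length libraries, against 4.70, 5.93, 4.83 and 5.71 CPM in the control libraries (-2.05 ± 0.27, adjusted p = 1.41e-07). No full-length library reached a control library. Other homeobox genes rose, among them Dlx2 by 2.72 ± 0.09 and the myogenic regulator Six4 by 1.58 ± 0.08. These, like the members of other families named in this paragraph, were picked after their values were seen. Forkhead genes rose in 11 of 19 and fell in 5, with Foxs1 at 2.35 ± 0.09 and Foxc2 at 1.62 ± 0.06 beside the FoxO genes. The 37 bHLH genes rose in 17 and fell in 17 (12 and 20 by total counts). Of 10 E2F genes 6 rose and 4 fell (4 and 4 by total counts), with the repressor E2f6 at 0.79 ± 0.06 and E2f8 at -1.09 ± 0.06.

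By biotype, the shares of genes that rose and fell were as follows. Of 12000 protein-coding genes 33.4% rose and 29.5% fell (2518 and 5478 genes by total counts), of 461 lincRNA genes 12.1% rose and 34.1% fell, and of 331 antisense genes 8.46% rose and 37.2% fell. Neat1, the noncoding scaffold of paraspeckles, had 22.4, 21.5, 21.4 and 21.8 CPM in the full-length libraries, against 175, 162, 164 and 149.7 CPM in the control libraries, with no overlap (-2.90 ± 0.15, adjusted p = 8.44e-10). Neat1 too was named after its value was seen. Without strand, counts of antisense genes cannot be told apart from those of their partners. Of 660 processed pseudogenes 111 rose and 41 fell, but 49 and 82 by total counts. Of 26 epigenetic regulators 9 rose and 12 fell (4 and 15 by total counts). Chd7, a chromatin remodeller, was higher by 1.48 ± 0.06. Tet1, Kdm4b and Ezh1, a DNA and a histone demethylase and a Polycomb methyltransferase, were lower, at -1.83 ± 0.16, -1.48 ± 0.09 and -1.06 ± 0.07.

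**Figure D4:**
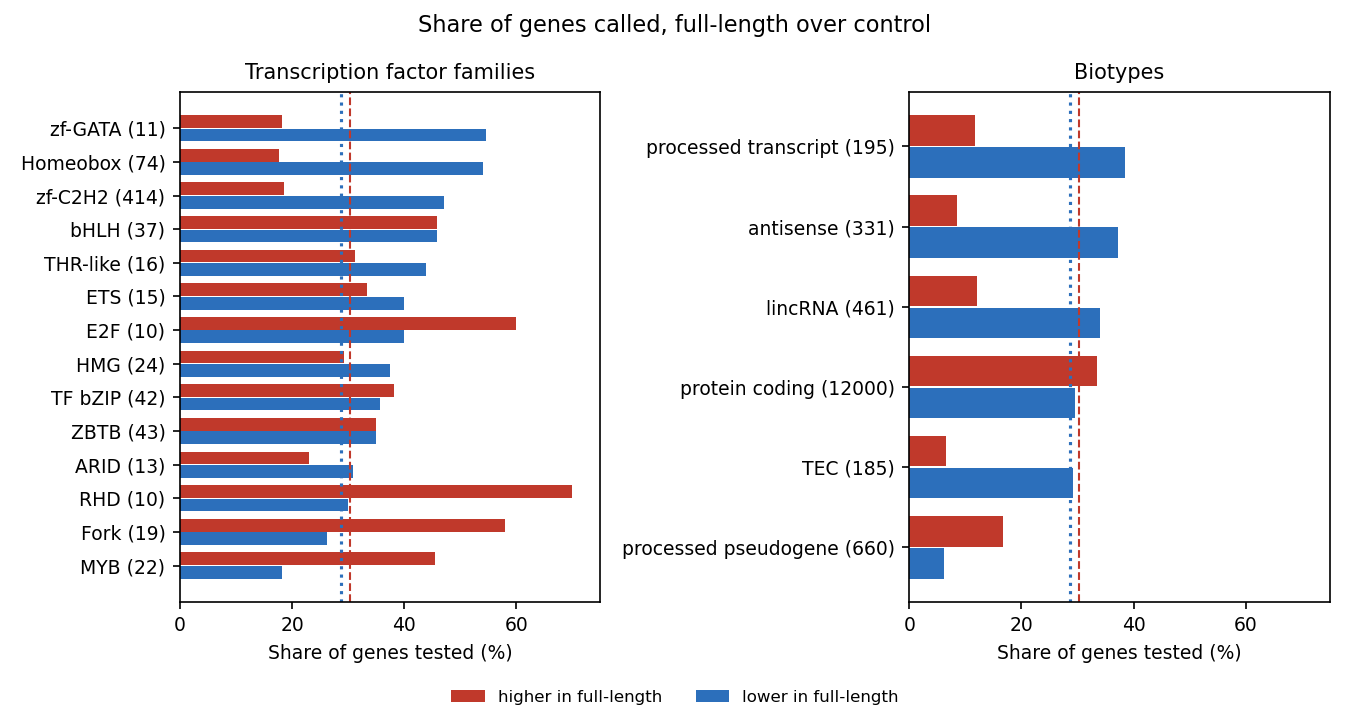
Share of tested genes (horizontal axes, %) called higher (red) and lower (blue) in full-length over control, by transcription factor family (left, at least 10 genes tested) and by biotype (right), with the number tested in brackets and dashed and dotted lines at the shares over all genes, 30.3% higher and 28.7% lower. Homeobox, C2H2 zinc finger, lincRNA and antisense genes have longer blue than red bars.

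The 4 full-length libraries were not equally alike. After the group mean was removed, libraries 1 and 3 deviated together (r = 0.19), as did libraries 2 and 4 (r = 0.18), while pairs across had r from -0.50 to -0.69, over genes, which are not independent replicates. Removing the mean of 4 libraries makes such r negative by itself, and in control libraries they ran from -0.16 to -0.42. Within these pairs the squared differences between counts were 2.5 times those that counting alone gives, against 4.05 to 4.88 times across the pairs and 2.0 to 2.7 times among control libraries. Libraries of the deletion constructs were unevenly alike too. Their differences were 2.40 to 4.51 times in delta-IDR (r from -0.56 to 0.01) and 2.46 to 3.94 times in delta-CC-LCD (r from -0.50 to -0.03). Hmox1, heme oxygenase, had 124, 69.03, 113 and 73.9 CPM in the full-length libraries, against 172, 154, 181 and 145 CPM in the control libraries, higher in full-length libraries 1 and 3 than in 2 and 4. Car9, carbonic anhydrase 9, had 930.3, 675, 918 and 677 CPM in the full-length libraries, against 705, 682, 763 and 677 CPM in the control libraries, with the same order. They respond to oxidative stress and to low oxygen. Ciart, a repressor of the clock, had 27.4, 35.6, 20.9 and 36.4 CPM in the full-length libraries, against 23.3, 16.9, 23.9 and 18.6 CPM in the control libraries, and here libraries 2 and 4 were higher. These 3 genes were chosen after their values were seen to show the split. Sgk1 and Errfi1 differed little between the pairs. The labels name no batch that goes with the pairs, and their part in the other values was tested by leaving either pair out and by summing the libraries of each pair. Without libraries 1 and 3, 15 interferon genes and 14 S-phase genes fell, and without libraries 2 and 4, 22 and 18 did. Without libraries 1 and 3, 4 of 20 cholesterol genes rose and 9 fell, and 10 of 30 ribosomal protein genes rose. Without libraries 2 and 4, 6 of 26 collagen and matrix genes and 5 of 14 MHC class I genes fell. Leaving out full-length library 2 alone left 7 of 26 respiratory chain genes higher and 3 lower, and leaving out library 3 alone left 7 of 13 mitochondrial transcripts higher. Hmox1, at -0.78 ± 0.18, adjusted p = 0.00245 over control, did not pass with the libraries of each pair summed, at a similar -0.77 (adjusted p = 0.0713) from fewer samples.

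**Figure D5:**
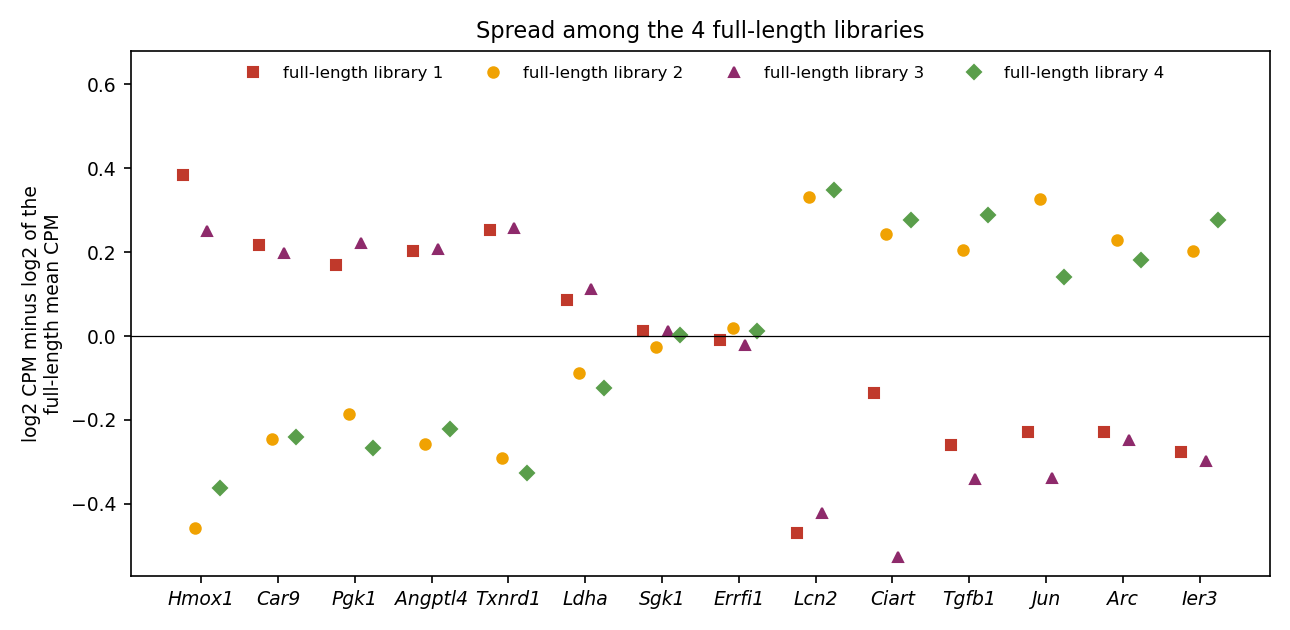
Log2 CPM of each full-length library minus the log2 of the full-length mean (vertical axis) for 14 genes (horizontal axis), with a marker for each library. Libraries 1 and 3 lie above 2 and 4 from Hmox1 to Ldha and below them from Lcn2 to Ier3, and Sgk1 and Errfi1 lie near 0 in all 4. The genes were not chosen by a rule and were set in this order, so they are examples and no test of the pairs.

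Full-length was also set against the deletion constructs, which shared the fit. Of 14118 genes 3568 (25.3%) were called over delta-IDR, 1917 higher (13.6%) and 1651 lower (11.7%), and 2727 (19.3%) over delta-CC-LCD, 1538 higher (10.9%) and 1189 lower (8.42%). By total counts the split was 1360 higher and 2700 lower over delta-IDR, and 1288 higher and 1543 lower over delta-CC-LCD. The 3 comparisons share the full-length libraries, so their values are given side by side only. Glucocorticoid-induced genes were called higher in 22 and lower in 4 of 44 over delta-IDR, and in 9 and 10 over delta-CC-LCD. Sgk1 had means of 1074 CPM in full-length, 909 CPM in delta-IDR, 910.3 CPM in delta-CC-LCD and 29.6 CPM in control libraries, and was 0.24 ± 0.04 (adjusted p = 0.000107) over delta-IDR and 0.24 ± 0.04 (adjusted p = 0.000253) over delta-CC-LCD. Zbtb16 had means of 5.21 CPM in full-length, 3.75 CPM in delta-IDR, 6.58 CPM in delta-CC-LCD and 0.483 CPM in control libraries, and Dusp1 of 324 CPM in full-length, 209 CPM in delta-IDR, 206 CPM in delta-CC-LCD and 18.9 CPM in control libraries. Dusp1 was 0.63 ± 0.06 (adjusted p = 6.82e-08) over delta-IDR and 0.65 ± 0.06 (adjusted p = 1.79e-07) over delta-CC-LCD. Immediate-early genes were higher in 13 and lower in 2 of 30 over delta-IDR, and in 13 and 0 over delta-CC-LCD.

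Interferon and hypoxia genes set full-length apart from delta-IDR. Of 35 interferon genes 32 were lower and 1 higher over delta-IDR (median -2.18), and 13 lower and 0 higher over delta-CC-LCD. Stat2 had means of 13.5 CPM in full-length, 26.3 CPM in delta-IDR, 17.4 CPM in delta-CC-LCD and 34.8 CPM in control libraries, and was -0.97 ± 0.08 (adjusted p = 1.85e-10) over delta-IDR and -0.37 ± 0.08 (adjusted p = 0.00227) over delta-CC-LCD. Isg15 had means of 1.62 CPM in full-length, 17.04 CPM in delta-IDR, 3.31 CPM in delta-CC-LCD and 3.05 CPM in control libraries, and was -3.39 ± 0.19 (adjusted p = 7.99e-14) and -1.03 ± 0.22 (adjusted p = 0.00159). Isg15 was highest in delta-IDR and Stat2 in control libraries, and without full-length libraries 1 and 3 neither passed over delta-CC-LCD, at -0.28 (adjusted p = 0.0722) for Stat2 and -0.64 (adjusted p = 0.0859) for Isg15. Of 32 hypoxia and glycolysis genes 24 were higher and 0 lower over delta-IDR (median 0.92), and 19 higher and 5 lower over delta-CC-LCD. Car9 had means of 799.96 CPM in full-length, 139 CPM in delta-IDR, 295 CPM in delta-CC-LCD and 707 CPM in control libraries, and was 2.53 ± 0.36 (adjusted p = 0.000184) over delta-IDR and 1.44 ± 0.34 (adjusted p = 0.0107) over delta-CC-LCD. Pgk1, phosphoglycerate kinase, had means of 2544 CPM in full-length, 944 CPM in delta-IDR, 1426 CPM in delta-CC-LCD and 2112 CPM in control libraries, at 1.43 ± 0.17 (adjusted p = 5.26e-05) and 0.84 ± 0.17 (adjusted p = 0.00471). Hypoxia genes are also among those that separate the pairs of full-length libraries, and without libraries 1 and 3 Car9 and Pgk1 did not pass over delta-CC-LCD, at 1.20 (adjusted p = 0.107) and 0.61 (adjusted p = 0.0787). S-phase genes were lower in 26 of 28 over delta-IDR and higher in 0, and lower in 7 and higher in 1 over delta-CC-LCD. Cdc6 had means of 11.3 CPM in full-length, 23.5 CPM in delta-IDR, 14.2 CPM in delta-CC-LCD and 34.9 CPM in control libraries, and was -1.05 ± 0.11 (adjusted p = 2.7e-08) over delta-IDR. Cholesterol genes were lower in 8 and higher in 1 of 20 over delta-IDR, and lower in 14 and higher in 1 over delta-CC-LCD. Ribosome biogenesis genes were higher in 4 and lower in 4 of 23 over delta-IDR, and in 2 and 7 over delta-CC-LCD. Rrp12 had means of 70.1 CPM in full-length, 62.4 CPM in delta-IDR, 71.4 CPM in delta-CC-LCD and 13.4 CPM in control libraries. Hox genes were lower in 7 of 27 over delta-IDR and higher in 0.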

How the data were processed

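Polyadenylated RNA of 44 libraries was sequenced, of which the 16 from L929 were fitted and 8, in 2 groups of 4, are compared here. The table holds counts of reads for each gene, deposited as whole numbers without any normalization. The submitters' processing notes name HISAT2 2.2.1 as a tool and mm10 as the genome build. No source used here states how reads were counted, with which annotation, or whether strand was used, so counts of overlapping genes, antisense genes and near-identical copies are uncertain. Besides the overlaps named in the results, Cebpb, G0s2, Gadd45a, Irf9, Lipe, Lrig1, Mcm7, Mt2, Ncor1, Plin4, Tap1 and Tgm2 overlap another gene with at least 10% of their CPM. Gene positions, biotypes and transcription factor families are those of the deposited table, in which 0 columns belonged to other samples and every row had a gene.

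Low counts were removed with filterByExpr, libraries were scaled by TMM, and edgeR 4.0.16 (R 4.3.3) quasi-likelihood fits with robust spread were made over all 16 libraries with a group term. Adjusted p is by Benjamini-Hochberg over the 14118 genes tested. CPM is the deposited count per 1e+06 counts after TMM scaling. The total counts per library limit the precision of low genes, and counting intervals (95%) cover counting error only.

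Genes were named by 5 rules, namely the 20 largest rises and falls by log2 and the 10 largest by CPM (called, protein-coding, 5 CPM or more on average, no overlap between groups), members of 39 lists, cell type markers, and neighbours of such genes. Exceptions are said to have been chosen after their values were seen. Some genes that meet the rules are not named. The libraries, lists and rules were chosen with earlier results of these data known. RefSeq promoter windows (GRCm38.p6) matched 10158 of 14115 tested symbols (72.0%). Of 37 glucocorticoid, 12 SRF and YAP, 29 interferon and 19 ribosome biogenesis genes with a window, all windows were searched. Other motifs (AP-1, E2F, D-box, FoxO, sterol, hypoxia and ETS sites, GC boxes and single glucocorticoid half-sites) were searched too and are not reported. Alternatives were DESeq2 1.42.0, RLE scaling, no filter, 2 groups only, a replicate block, libraries summed in pairs and each library left out, and, added after seeing the data, total counts as scaling and each pair of full-length libraries left out. The steps were tested on simulated counts. Same-numbered libraries of the 2 groups did not deviate together, so the numbers were not used to pair them.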

Additional observations from a re-analysis of the deposited data

Results flagged for a closer look

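Within groups of 4, a library stood apart from the other 3 in 15 of 535 sets of values examined (2.80%), where the gap to the nearest library exceeded Dixon's 95% critical share of the group's range. Chance alone gives about 1 set in 20. Among the full-length libraries, library 1 was low for Nfkbie at 1.76 CPM, against 2.74 to 2.85 CPM in the others, library 2 was high for Frmd4a at 137.4 CPM, and library 3 was low for Fosl2 at 116.7 CPM and high for Mcl1 at 839.3 CPM. Library 4 was high for Vcam1 at 13.3 CPM, against 9.60 to 9.82 CPM in the others. Among the control libraries, library 1 was high for Areg at 0.627 CPM, against 0.104 to 0.156 CPM in the others, and library 2 held the only counts of Depp1, at 0.104 CPM. Control library 3 was high for Ccnb1 at 233.0 CPM, Nfe2l2 at 118.2 CPM, Sgk1 at 32.5 CPM and Snai2 at 47.9 CPM. Control library 4 was high for Il6 at 3.04 CPM, Smad3 at 59.7 CPM and Ppara at 0.0524 CPM, and had 0 CPM of Serpina3n, against 0.0519 to 0.0523 CPM in the others.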

How the results depend on the processing

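The count of genes called in full-length over control, 8339, held within 1.5 times under every alternative run, and 94.4% of the calls were made in the same direction by DESeq2, 99.9% with RLE factors, 94.3% with no filter and 90.4% with the libraries summed in pairs. Scaling by total counts kept the smallest share of these calls, 80.9%, with 2687 higher and 6186 lower, and gave 2700 lower over delta-IDR. Over the deletion constructs the smallest share was kept without full-length libraries 1 and 3, at 61.9% over delta-IDR and 48.5% over delta-CC-LCD. With the libraries summed in pairs, 1039 genes were lower over delta-IDR, and 1501 were called over delta-CC-LCD, 820 higher and 681 lower. Without full-length libraries 1 and 3, 1522 were called over delta-CC-LCD, 850 higher and 672 lower. The cause was not tested, and these last fits also had fewer samples. Leaving out each library in turn gave 7924 to 8116 genes called over control, 4041 to 4168 higher and 3813 to 3989 lower, 1684 to 1768 at least 2-fold, 2893 to 3561 over delta-IDR and 2091 to 2829 over delta-CC-LCD.

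Libraries that share a number had deviations with r of 0.03, -0.01, -0.10 and 0.10 between full-length and control, and a replicate block gave 8301 calls, 4265 higher and 4036 lower, with 3476 over delta-IDR and 2670 over delta-CC-LCD. Of the genes named with values, 7 changed sign, none of them called over control as reported. By total counts, Fkbp4 was at -0.11 (adjusted p = 0.0482) and Ncor1 at -0.14 (adjusted p = 0.00529), both then called lower, Il6 at -0.13 and Smad4 at -0.0755. Without full-length libraries 2 and 4, Angptl4 was at 0.0227 and Il6 at -0.30, and without libraries 1 and 3, Car9 was at -0.0562 and Mki67 at 0.0188. With only the 2 groups fitted, Car9 did not pass over delta-CC-LCD (adjusted p = 0.0604). Il6 ran from -0.11 to 0.19 when single libraries were left out. Depth limits genes of under about 1 CPM, for which the groups hold few counts.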
